A study of Mus musculus with 8 samples.

Results

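The genes described here encode the thin filament of the cardiac sarcomere, the proteins that titin and the myosin filament carry, and the proteins that release, store and remove calcium in heart muscle. They were chosen by symbol from a list of 30 troponin, tropomyosin, titin-associated and sarcoplasmic reticulum genes, with actins, myosins and PDLIM genes left out. All 30 were found among the 19938 genes measured. The rule names genes by function and uses no measured value, but the list was drawn up with earlier results of these data known. No desmosome gene is among them, although the description of the list mentions desmosome-linked genes.

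RNA came from mouse hearts and was measured on the Affymetrix Mouse Gene ST array, with 2 arrays in each of 4 groups. WT sham hearts were wild type with a sham operation, and KO sham hearts lacked MAFbx (labelled MAFbxKO) and had the same operation. In WT MI and KO MI hearts, of the same genotypes, the left coronary artery was tied off for good to produce an infarct (MI, myocardial infarction), with hearts collected on day 1. MAFbx, also called atrogin-1, is a muscle ubiquitin ligase encoded by Fbxo32. The labels give neither strain, age and sex, nor the part of the heart sampled, nor the time after a sham operation, nor which part of the gene was deleted. Nor is it stated that arrays within a group are from different animals, and p-values therefore reflect only how far these samples spread, which may be technical. Levels are the authors' log2 values, on which a difference of 1 is a doubling.

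In a heartbeat, calcium that enters the cell opens the ryanodine receptor Ryr2 in the sarcoplasmic reticulum, and the calcium released binds troponin C on the thin filament. Troponin I, troponin T and tropomyosin then move so that myosin can bind actin and the muscle shortens. Relaxation follows when the pump SERCA2, encoded by Atp2a2, returns calcium to the reticulum under the restraint of phospholamban (Pln), and the exchanger encoded by Slc8a1 carries calcium out of the cell.

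To show sequence next to the starts of these genes, the 250 bases before the annotated start (RefSeq, mouse build GRCm38.p6) were searched on both strands for motifs whose binding factors act in muscle. The letters of the MCAT motif were CATTCC. Those of the binding motif of GATA factors were AGATAA. The E-box searched was CAGCTG. The MEF2 and CArG motifs are given by name. Windows were present for 25 of the 30 genes, 31 in all, since some genes have several starts. The MEF2 motif was in 3 of the 31 windows, those of Mybpc3, Ttn and Casq2, and in 2.92% of 32851 mouse windows of this length. MCAT was in 6 (12.6% of all windows), GATA in 6 (9.99%), the E-box in 9 (13.0%) and CArG in 2 (1.47%). Counted by gene, MCAT was in 6 of the 25, GATA in 5, the E-box in 7 and CArG in 2. Overlapping windows of Jph2, and likewise of Tnni1, held the same E-box match. A match is a run of letters and was not tested as a binding site. The windows below belong to 3 genes that were lower after infarction in both genotypes and to Tnnt2, which was at nearly one level on all arrays. All of those shown hold a match, while the windows of Ryr2 and S100a1, also lower in both genotypes, held 0. Capitals mark every match to a searched motif, and each sequence reads 5′ to 3′ on the strand of its gene.

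Mybpc3 (chr2:91117894-91118143, + strand): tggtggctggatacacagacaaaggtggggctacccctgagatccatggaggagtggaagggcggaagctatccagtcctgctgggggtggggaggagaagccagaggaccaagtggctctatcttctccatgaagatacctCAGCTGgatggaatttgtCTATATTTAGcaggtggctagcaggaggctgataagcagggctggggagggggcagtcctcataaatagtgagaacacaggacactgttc
Ttn (chr2:76982548-76982797, - strand): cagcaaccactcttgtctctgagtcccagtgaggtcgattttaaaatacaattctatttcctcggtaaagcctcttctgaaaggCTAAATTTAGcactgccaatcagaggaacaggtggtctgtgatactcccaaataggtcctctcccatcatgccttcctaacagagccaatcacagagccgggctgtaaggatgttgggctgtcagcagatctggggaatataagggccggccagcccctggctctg
Casq1 (chr1:172219896-172220145, - strand): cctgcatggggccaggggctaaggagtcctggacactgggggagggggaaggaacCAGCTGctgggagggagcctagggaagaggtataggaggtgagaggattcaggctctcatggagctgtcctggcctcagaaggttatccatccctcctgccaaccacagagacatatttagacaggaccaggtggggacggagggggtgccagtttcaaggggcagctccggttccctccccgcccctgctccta
Tnnt2 (chr1:135836084-135836333, + strand): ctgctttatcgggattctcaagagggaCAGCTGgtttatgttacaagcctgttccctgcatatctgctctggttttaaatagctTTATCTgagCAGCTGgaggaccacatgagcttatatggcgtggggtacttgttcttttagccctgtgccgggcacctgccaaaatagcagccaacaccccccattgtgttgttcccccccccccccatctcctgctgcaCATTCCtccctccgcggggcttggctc

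In the Mybpc3 window the MEF2 match lay 90 to 81 bases before the start and the E-box match 108 to 103 bases before it, and the MEF2 match of Ttn lay 166 to 157 bases before the start. Casq1 held 1 E-box match. The Tnnt2 window shown held 4 matches, of which the MCAT match lay 27 to 22 bases before the start. Another Tnnt2 window, of a different start, held 0.

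Fbxo32 separated the genotypes on every array. It read 8.76 and 8.79 in WT sham, 8.35 and 8.21 in WT MI, 4.68 and 5.17 in KO sham and 5.14 and 5.46 in KO MI, a difference of KO from WT of -3.85 (SE 0.18, limma adjusted p = 3.77e-05) in sham hearts and -2.98 (SE 0.18, limma adjusted p = 0.00041) after MI. With all 35556 probes tested, the second value had an adjusted p of 0.0523 (range over alternatives 8.03e-05 to 0.0523). Arrays of a group correlated across genes between 0.9909 in KO sham and 0.9962 in WT sham, where genes are not independent replicates. On the second principal component (8.56% of the variance) KO sham replicate 1 lay at -21.2 against 15.3 for replicate 2, and WT MI replicate 2 at -20.2 against 0.629 for replicate 1. Leaving out these 2 arrays together, a choice made after seeing the data, changed the number of members past the threshold from 13 to 12 in WT MI and from 9 to 11 in KO MI.

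RNA from heart tissue holds several cell types, and fewer cells of a type cannot be told apart from less RNA per cell. Of 12 cardiomyocyte markers outside the list, among them Myh6, Myl2 and Mb, 1 was higher and 2 lower in WT MI than in WT sham, and 1 was higher and 1 lower in KO MI than in KO sham. Their mean log2 level per array lay between 12.84 and 12.89 in WT sham, 12.71 and 12.80 in KO sham, 12.69 and 12.76 in WT MI and 12.73 and 12.75 in KO MI. All 8 neutrophil markers were higher after MI in both genotypes, with a mean between 4.20 and 4.44 on sham arrays, between 9.14 and 9.77 in WT MI and between 8.13 and 8.42 in KO MI. Of 7 monocyte and macrophage markers 5 were higher in each genotype. Of 7 smooth muscle markers, with Myh11 and Tagln, 4 were lower in WT MI and 2 in KO MI. They had a mean of 8.04 and 8.72 in WT sham, 7.57 and 7.62 in KO sham, 7.32 and 7.58 in WT MI and 7.38 on both KO MI arrays. In KO sham against WT sham 0 of these 7 passed, and they did not all move one way. Myocd read 9.58 on both WT sham arrays and 10.13 and 10.10 in KO sham, and Smtn 8.51 and 8.65 and then 8.92 and 8.39. Cnn1 read 6.40 and 8.28 in WT sham and 5.54 and 5.80 in KO sham. The mean of 8 atrial markers, with Myl7 and Myl4, ran among sham arrays from 6.18 in KO sham replicate 2 to 8.13 in WT sham replicate 2. Of these 8, 4 were lower and 1 higher in WT MI, 1 was lower and 1 higher in KO MI, and 1 was lower in KO sham than in WT sham. The part of these cell types in the results below was not tested.

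The first comparison asked which of the 30 genes differed between infarcted and sham WT hearts. Of them 12 fell and 1 rose, and 17 did not pass the test (limma adjusted p under 0.05). Over all 19938 genes 28.1% passed, with 15.8% lower and 12.3% higher, so that 40.0% of the members against 15.8% of genes were lower. The median log2 difference was -0.31 over the 30 and 0.04 over all genes. Each array was also centred on the median of all its 35556 probes, including those without a gene. The higher genes were then 33.6% of all that passed in place of 43.8%, and 10 members passed, all lower. Without WT sham replicate 1 only 7 members passed. In KO hearts 8 members fell, 1 rose and 21 did not pass, beside 20.8% of all genes (10.3% lower, 10.5% higher), and the median was -0.18 against 0.01 over all genes. Median centring moved the share of higher genes among all that passed in KO from 50.7% to 62.3%, and 3 members then passed. The count in KO also rested on single arrays: it was 2 without KO MI replicate 1, 3 without KO MI replicate 2, 3 without KO sham replicate 2 and 5 without either WT sham array. The 8 members that fell in KO also fell in WT: Ttn, Mybpc3, Nebl, Ryr2, Casq1, Asph, Hrc and S100a1. Tnni3, Lmod2, Pln and Camk2b passed in WT alone, but a difference between the genotypes' responses did not pass for any member.

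**Figure D1:**
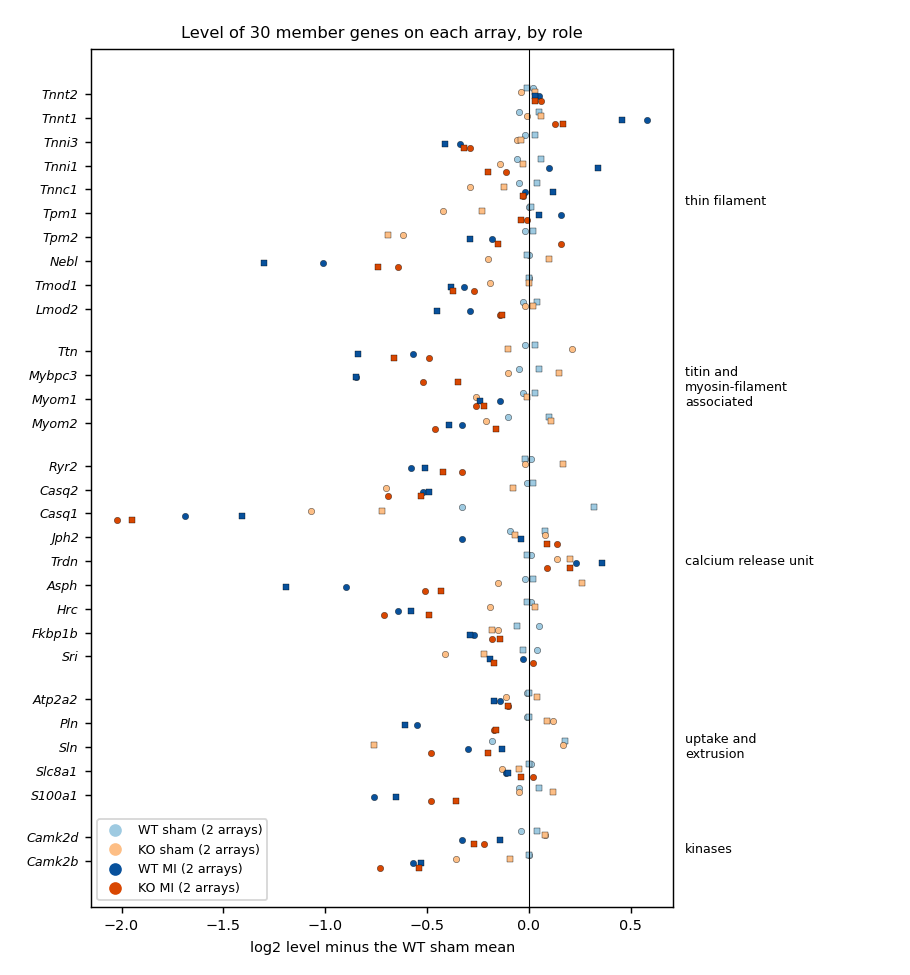
Each point is 1 array, placed at the log2 level of the gene minus the mean of the 2 WT sham arrays (circles, replicate 1; squares, replicate 2), with genes grouped by role. Points of infarcted hearts lie furthest left for Casq1, Nebl and Asph, and the Tnnt2 points of all groups lie near 0.

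On the thin filament, most core subunits of the adult heart did not pass the test after infarction. Tnnt2, cardiac troponin T, read 13.73 and 13.70 in WT sham, 13.76 and 13.74 in WT MI, 13.67 and 13.74 in KO sham and 13.77 and 13.74 in KO MI. The log2 difference was 0.04 in WT (95% interval -0.22 to 0.30) and 0.05 in KO (-0.20 to 0.31). Tnnc1, the calcium-binding troponin C, differed by 0.05 in WT (-0.23 to 0.33) and 0.17 in KO (-0.11 to 0.45). Tpm1, the main cardiac tropomyosin, differed by 0.11 in WT and 0.30 in KO, neither past the threshold. Among these genes no difference as large as a doubling lay within the intervals.

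Tnni3, cardiac troponin I, was the subunit that fell. It read 13.50 and 13.55 in WT sham and 13.18 and 13.11 in WT MI, so the groups did not overlap (1.30-fold lower, log2 difference -0.38, SE 0.11, limma adjusted p = 0.0334). The call was lost under 10 of 18 alternatives, among them cyclic loess, median centring and the loss of either WT MI array, with adjusted p values between 0.00174 and 0.191 over all alternatives. In KO it read 13.46 and 13.48 in sham and 13.23 and 13.20 after MI (difference -0.25, limma adjusted p = 0.169). Tnnt2, Tnni3, Atp2a2 and Pln all read above 13 on the scale whose highest probe lay between 14.35 and 14.45. Whether that height limited their differences was not tested.

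The skeletal and fetal forms of the troponins, Tnnt1 and Tnni1, lay at the 49.5 and 40.3 percentile of genes. The mean of the skeletal muscle markers lay between 4.53 and 4.91 on all arrays. Whether signals of this height stand above background was not tested. Tnnt1, the slow skeletal troponin T, read 5.54 and 5.64 in WT sham and 6.17 and 6.05 in WT MI, a rise of 1.44-fold (log2 difference 0.52, SE 0.12, limma adjusted p = 0.00881). Both WT MI arrays lay above all others. In KO it read 5.58 and 5.65 in sham and 5.72 and 5.76 after MI, a difference of 0.12 that did not pass (limma adjusted p = 0.541). Without WT sham replicate 1 the rise in WT missed the threshold, as it did with median centring (range of adjusted p over alternatives 0.00504 to 0.084). Tnni1, the slow skeletal and fetal troponin I, read 5.02 and 5.14 in WT sham, 5.18 and 5.42 in WT MI, 4.94 and 5.05 in KO sham and 4.97 and 4.88 in KO MI, with no difference past the threshold.

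Tpm2, beta-tropomyosin, which skeletal and smooth muscle also express, moved apart in the genotypes. It read 6.44 and 6.48 in WT sham, 5.84 and 5.77 in KO sham, 6.28 and 6.17 in WT MI and 6.62 and 6.31 in KO MI. The KO sham arrays were the lowest of the 8. It rose 1.58-fold with infarction in KO (log2 difference 0.66, SE 0.14, limma adjusted p = 0.00802), a call lost without KO MI replicate 1 (0.077; adjusted p over the alternatives 0.00542 to 0.077). In WT the difference was -0.23 (SE 0.14, limma adjusted p = 0.244). KO sham lay 1.57-fold below WT sham (log2 difference -0.65, limma adjusted p = 0.316). The difference of the responses was 0.89 (95% interval 0.46 to 1.33), and it missed the threshold (limma adjusted p = 0.372). The mean of the 7 smooth muscle markers was 8.04 and 8.72 in WT sham, 7.57 and 7.62 in KO sham and 7.38 on both KO MI arrays. Of the 7, 0 passed in KO sham against WT sham. Single markers went both ways from KO sham to KO MI: Cnn1 read 5.54 and 5.80 and then 6.46 and 6.49, Acta2 9.38 and 9.58 and then 9.66 and 9.78, and Myh11 7.03 and 7.15 and then 6.28 and 6.48. Their part in the Tpm2 values was not tested.

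**Figure D2:**
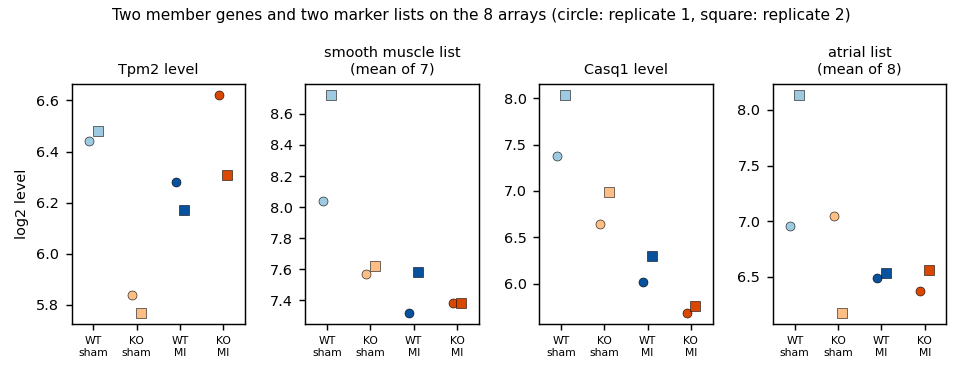
Log2 levels of Tpm2 and Casq1 on the 8 arrays beside the mean log2 level of 7 smooth muscle and 8 atrial markers, 1 point per array. Tpm2 was lowest on the KO sham arrays (5.84 and 5.77), while the smooth muscle mean was highest on the WT sham arrays (8.04 and 8.72).

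Among the proteins that cap, lengthen or anchor the thin filament, Nebl had the largest difference in WT. It encodes nebulette, the cardiac relative of nebulin that links thin filaments to the Z-disc. It read 10.77 and 10.76 in WT sham, 9.76 and 9.47 in WT MI, 10.57 and 10.87 in KO sham and 10.13 and 10.03 in KO MI. It fell 2.22-fold in WT (log2 difference -1.15, SE 0.15, limma adjusted p = 0.000373) and 1.55-fold in KO (log2 difference -0.64, SE 0.15, limma adjusted p = 0.0136). The call in KO was lost without KO sham replicate 2, without either KO MI array and with median centring (adjusted p over alternatives 0.00359 to 0.0971). A second Nebl probe, tested among all probes, gave -0.92 in WT and -0.77 in KO. Lmod2, the cardiac leiomodin that lengthens thin filaments, read 11.13 and 11.20 in WT sham and 10.87 and 10.71 in WT MI. That fall of 1.30-fold (limma adjusted p = 0.0416) was lost under 11 of 18 alternatives (range 0.00789 to 0.215), and the difference in KO was -0.13. Tmod1, the tropomodulin that caps the pointed end of the filament, read 11.35 on both WT sham arrays and 11.03 and 10.97 in WT MI, just outside the threshold (limma adjusted p = 0.0598, range 0.0142 to 0.261). It differed by -0.22 in KO.

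Titin (Ttn), the giant spring that runs from Z-disc to M-band, and myosin-binding protein C (Mybpc3), which sits on the myosin filament, fell in both genotypes. Mybpc3 read 12.31 and 12.41 in WT sham and 11.51 on both WT MI arrays, 1.81-fold lower (log2 difference -0.86, SE 0.13, limma adjusted p = 0.0011). In KO it read 12.26 and 12.51 in sham and 11.84 and 12.01 after MI, 1.38-fold lower (limma adjusted p = 0.0354), which was lost under 9 of 18 alternatives (range 0.00632 to 0.205). The 2 KO MI arrays lay between the WT MI arrays and all sham arrays. Ttn read 12.27 and 12.32 in WT sham, 11.72 and 11.45 in WT MI, 12.50 and 12.19 in KO sham and 11.80 and 11.63 in KO MI. Its falls were 1.64-fold in WT (limma adjusted p = 0.00629) and 1.55-fold in KO (limma adjusted p = 0.0158). The first was lost without WT MI replicate 2 (0.0514, range 0.00101 to 0.0514), the second without KO sham replicate 1 or KO MI replicate 2 (range 0.00315 to 0.12). The M-band proteins Myom1 and Myom2 differed by -0.19 and -0.37 in WT and by -0.10 and -0.26 in KO, with no call.

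**Figure D3:**
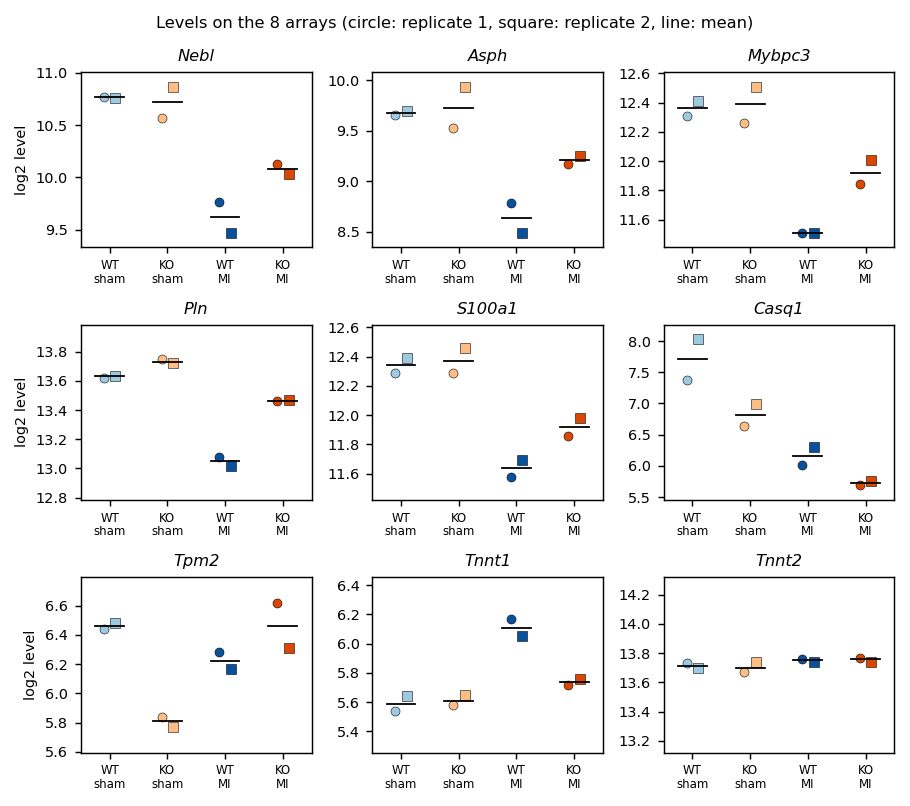
Log2 levels of 9 genes in the 4 groups, with each array as a point and the group mean as a line; each panel has its own axis of log2 units. Mybpc3 and Pln in KO MI lie between WT MI and the sham arrays, and Tnnt2 is level.

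The calcium release unit joins Ryr2 to calsequestrin, triadin and junctin inside the reticulum, and junctophilin holds it close to the cell membrane. Of its 9 members 4 fell in WT and the same 4 in KO, and 0 rose. These are 44.4% of the 9, beside 15.8% of all genes lower in WT and 10.3% in KO. Casq1, the calsequestrin of fast skeletal muscle, had the largest difference of the 30 in both genotypes. It read 7.38 and 8.03 in WT sham, 6.02 and 6.30 in WT MI, 6.64 and 6.99 in KO sham and 5.69 and 5.76 in KO MI. It fell 2.92-fold in WT (log2 difference -1.55, SE 0.21, limma adjusted p = 0.000534) and 2.13-fold in KO (log2 difference -1.09, SE 0.21, limma adjusted p = 0.00557). The call held under all 18 alternatives in each genotype, and Casq1 was the only one of the 9 KO calls for which that was so. Its level in KO lay below WT by 0.89 in sham and by 0.43 after MI, and by 0.66 averaged over conditions (limma adjusted p = 0.214), with every KO array below the WT arrays of its condition. Of 10 skeletal muscle markers 0 were lower after MI in either genotype and 2 were higher in WT, and their mean lay between 4.53 and 4.91 on all arrays. The atrial mean was highest on the array with the highest Casq1, WT sham replicate 2. In KO sham the atrial mean was 7.05 and 6.18 where Casq1 read 6.64 and 6.99. The smooth muscle mean was also highest on WT sham replicate 2. It was 8.04 and 8.72 in WT sham, 7.57 and 7.62 in KO sham, 7.32 and 7.58 in WT MI and 7.38 on both KO MI arrays. Of the 7 smooth muscle markers 0 passed in KO sham against WT sham. The part of these cell types in the Casq1 values was not tested.

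Casq2, the calsequestrin of heart muscle, read 11.68 and 11.71 in WT sham, 11.17 and 11.20 in WT MI, 10.99 and 11.61 in KO sham and a mean of 11.08 (SD 0.11, n = 2) in KO MI. KO sham replicate 1 lay with the infarcted hearts. The difference was -0.51 in WT (limma adjusted p = 0.0684, range 0.00922 to 0.22) and -0.22 in KO (limma adjusted p = 0.484). Without KO sham replicate 1 both passed, and the difference in KO was -0.53. The WT difference passed under 6 of 18 alternatives in all.

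Asph encodes aspartyl/asparaginyl beta-hydroxylase and, from the same locus, junctin and junctate, which bind calsequestrin or calcium in the reticulum. One probe stood for the whole locus, so these forms were not separated. It read 9.66 and 9.70 in WT sham, 8.78 and 8.49 in WT MI, 9.53 and 9.94 in KO sham and 9.17 and 9.25 in KO MI. The fall was 2.06-fold in WT (log2 difference -1.05, SE 0.16, limma adjusted p = 0.00109) and 1.44-fold in KO (log2 difference -0.52, SE 0.16, limma adjusted p = 0.0472). The call in KO was lost under 10 of 18 alternatives (range 0.00782 to 0.21).

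Ryr2, the calcium release channel itself, read 12.34 and 12.31 in WT sham, 11.75 and 11.82 in WT MI, 12.31 and 12.50 in KO sham and 12.00 and 11.91 in KO MI. It fell 1.46-fold in WT (limma adjusted p = 0.00888, lost without either WT sham array, range 0.000714 to 0.0684). In KO it fell 1.37-fold (limma adjusted p = 0.0279, lost under 8 of 18 alternatives, range 0.00334 to 0.172). Hrc, the histidine-rich calcium-binding protein of the reticulum, read 11.16 and 11.14 in WT sham and 10.51 and 10.57 in WT MI, 1.53-fold lower (limma adjusted p = 0.00667). Without WT sham replicate 1 this missed the threshold (0.0513, range 0.00103 to 0.0513). In KO it read 10.96 and 11.18 in sham and 10.44 and 10.66 after MI, 1.43-fold lower (limma adjusted p = 0.0211), lost under 4 of 18 alternatives (range 0.00437 to 0.155). Fkbp1b, whose product calstabin-2 binds the release channel, read between 4.05 and 4.39 on the 8 arrays and Sri, which encodes the calcium-binding protein sorcin, between 9.52 and 9.97. Jph2, the cardiac junctophilin, differed by -0.18 in WT (95% interval -0.50 to 0.13) and 0.11 in KO (-0.21 to 0.43). None of these 3 passed in either genotype. A second Jph2 probe, tested among all probes, gave -0.30 in WT and 0.28 in KO (limma adjusted p = 0.159 and 0.214).

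Triadin (Trdn), which anchors calsequestrin at the release channel, had 19 probes, more than any other member, and they disagreed. Mean levels ranged from 2.58 to 11.74. The probe with the highest mean, which stood for the gene, read 11.60 and 11.58 in WT sham, 11.82 and 11.95 in WT MI, 11.73 and 11.79 in KO sham and 11.68 and 11.79 in KO MI, with no difference past the threshold. Over the 19 probes the WT difference ran from -0.46 to 0.89, with 2 higher, 1 lower and 16 not called when all 35556 probes were tested (17.9% of all probes passed). In KO it ran from -0.99 to 0.24, with 9 lower and 0 higher (13.1% of all probes passed). The lower probe in WT was 10362404 (-0.46, limma adjusted p = 0.0311), and the higher ones were 10362450 (0.72, adjusted p = 0.0227) and 10362462 (0.89, adjusted p = 0.0447). All 19 lay above 0 in KO sham against WT sham, between 0.01 and 0.68, and all 19 had a more negative response in KO than in WT, by 0.11 to 1.01, yet 0 passed in either comparison. Probes of 1 gene share its RNA and are not replicates. With the mean of the 19 in place of the brightest, Trdn was lower in KO MI by 0.44 (limma adjusted p = 0.029, range over alternatives 0.029 to 0.976).

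**Figure D4:**
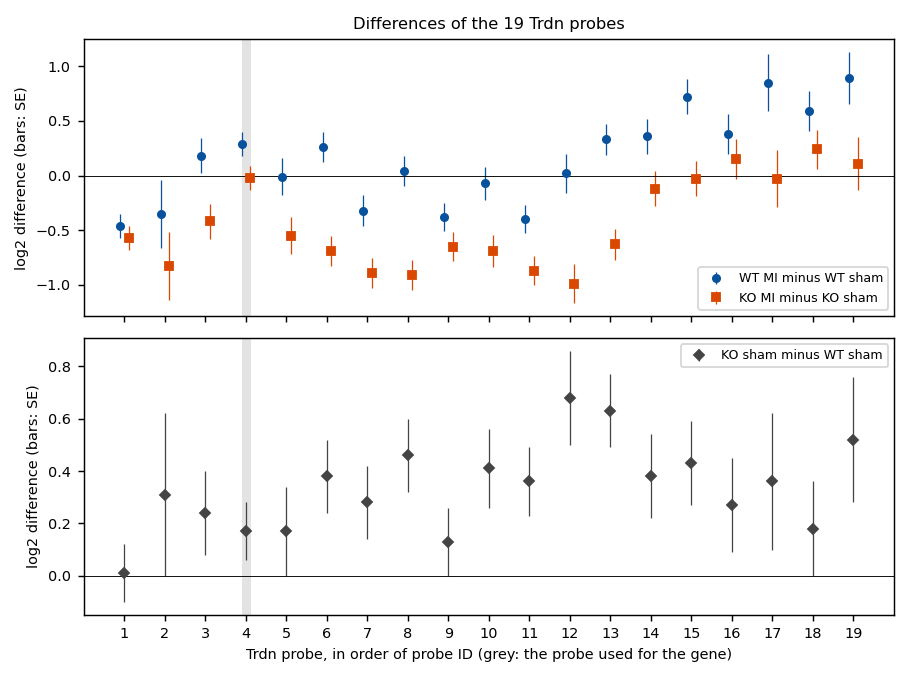
Log2 differences (SE bars) of the 19 Trdn probes in order of probe ID, for infarction in WT and KO (upper panel) and for KO sham against WT sham (lower panel). The WT points run from -0.46 to 0.89 and are above the KO points for all 19 probes.

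Calcium uptake depends on Atp2a2 and on Pln and Sln, small proteins that restrain the pump. Atp2a2 read 13.88 and 13.89 in WT sham, 13.75 and 13.72 in WT MI, 13.78 and 13.93 in KO sham and 13.79 on both KO MI arrays, a difference of -0.15 in WT (95% interval -0.41 to 0.11) and -0.06 in KO (-0.33 to 0.20). Pln fell in WT. It read 13.62 and 13.63 in WT sham and 13.08 and 13.02 in WT MI, 1.5-fold lower (log2 difference -0.58, SE 0.11, limma adjusted p = 0.00388), a call kept under all 18 alternatives. In KO it read 13.75 and 13.72 in sham and 13.46 and 13.47 after MI (difference -0.27, limma adjusted p = 0.132), and the KO MI arrays lay between WT MI and every sham array. Sln, sarcolipin, which restrains the pump in atria and skeletal muscle, read between 3.24 and 4.18 on the 8 arrays, at the 21.2 percentile of genes, and its groups overlapped. The atrial light chain Myl7 on the same arrays ran from 4.56 to 8.80.

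S100a1, a calcium sensor that acts on the pump and the release channel, read 12.29 and 12.39 in WT sham, 11.58 and 11.69 in WT MI, 12.29 and 12.46 in KO sham and 11.86 and 11.98 in KO MI. It fell 1.63-fold in WT (log2 difference -0.71, SE 0.13, limma adjusted p = 0.00242), under all 18 alternatives. The fall of 1.37-fold in KO (limma adjusted p = 0.0307) was lost under 9 (range 0.00425 to 0.172). Slc8a1, the sodium-calcium exchanger, was at 10.26 to 10.41 on all 8 arrays by its brighter probe. Its differences were -0.11 in WT (95% interval -0.37 to 0.15) and 0.08 in KO (-0.18 to 0.33). A second Slc8a1 probe, tested among all probes, gave -0.26 in WT and 0.19 in KO, neither past the threshold. That probe read 8.47 and 8.37 in WT MI and 9.14 and 8.92 in KO MI (difference 0.61, limma adjusted p = 0.431).

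Of the calmodulin-dependent kinases that phosphorylate phospholamban and the release channel, Camk2b read 7.19 on both WT sham arrays and 6.62 and 6.66 in WT MI, 1.47-fold lower (limma adjusted p = 0.0131). That call was lost without either WT sham array or without WT MI replicate 1 (range 0.00626 to 0.077). In KO it read 6.83 and 7.10 in sham and 6.46 and 6.65 after MI (difference -0.41, limma adjusted p = 0.0593, range 0.0288 to 0.296). Camk2d, the main cardiac form, read 10.70 and 10.78 in WT sham, 10.41 and 10.60 in WT MI, 10.82 on both KO sham arrays and 10.52 and 10.47 in KO MI. Its differences of -0.24 and -0.33 did not pass.

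Pairs of related members were also compared within each array, as the log2 ratio of one gene to the other, which shows unequal change and not a ratio of transcript numbers. For 8 such ratios the 4 MI arrays were set against the 4 sham arrays of both genotypes, where an exact two-sided permutation test over 70 arrangements can give no p under 0.0286. Pln to Atp2a2 differed by -0.32, and all 4 MI arrays (-0.71 to -0.33) lay below all 4 sham arrays (-0.26 to -0.03). Casq1 to Casq2 differed by -0.96, Tnni1 to Tnni3 by 0.39 and Tnnt1 to Tnnt2 by 0.28, also without overlap. For these 4 the exact p was 0.0286, the smallest possible, and 0.0571 after adjustment over the 8 ratios, so none passed. With cyclic loess Pln to Atp2a2 differed by -0.31 and Casq1 to Casq2 by -1.02 (exact adjusted p = 0.114 for each). Tnni1 to Tnni3 then differed by 0.25 (exact adjusted p = 0.274) and Tnnt1 to Tnnt2 by 0.185 (exact adjusted p = 0.305). Without cyclic loess, the Tnnt1 to Tnnt2 difference was 0.48 in WT and 0.07 in KO. Tpm2 to Tpm1 differed by -0.34 in WT and 0.36 in KO, and by 0.01 in both together (exact adjusted p = 0.971). The ratios of Sln to Atp2a2, Camk2b to Camk2d and Myom2 to Myom1 had exact adjusted p values of 0.971, 0.19 and 0.137.

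The knockout was then set against WT within each condition. In sham hearts 0 of the 30 members passed (limma, 4 with an unadjusted p under 0.05, as had 1017 of the 19938 genes), beside 0.0301% of all genes (0.00502% higher, 0.0251% lower). The 4 were Tpm2, given above, Sri (log2 difference -0.32, limma adjusted p = 0.937), Casq1 (log2 difference -0.89, limma adjusted p = 0.388) and Tpm1. Tpm1 read 12.87 and 12.88 in WT sham and 12.45 and 12.64 in KO sham (difference -0.32, limma adjusted p = 0.887). After infarction 0 passed as well (7 with an unadjusted p under 0.05, as had 2337 of the 19938 genes), beside 0.0702% of all genes (0.0301% higher, 0.0401% lower). Among these Pln was higher in KO MI than in WT MI by 0.42 (95% interval 0.16 to 0.67, limma adjusted p = 0.225), Asph by 0.57 (0.21 to 0.94, adjusted p = 0.238), Nebl by 0.47 (0.14 to 0.80, adjusted p = 0.285) and Mybpc3 by 0.42 (0.12 to 0.71, adjusted p = 0.287). In each of these 4 both KO arrays lay above both WT arrays. The same held for members with small differences, such as Atp2a2 (0.06) and Slc8a1 (0.09), and its share over all genes was not counted. With a limma prior that follows the mean level, Pln alone passed (adjusted p = 0.0344, range over alternatives 0.0344 to 0.701). The other 3 of the 7 were S100a1 (0.28, limma adjusted p = 0.422), Tnnt1 (-0.38, adjusted p = 0.285) and Tnni1 (-0.38, adjusted p = 0.326).

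The difference of the infarction responses, KO minus WT, was above 0 for 26 of 30 members with a median of 0.15, beside 51.1% of all genes and a median of 0.01. It passed for 0 members (4 with an unadjusted p under 0.05) and 0 of 19938 genes (1637 with an unadjusted p under 0.05, limma). The 4 were Tpm2, Nebl (0.51, 95% interval 0.05 to 0.98), Asph (0.52, interval 0.01 to 1.04) and Tnnt1 (-0.40). For Mybpc3 it was 0.39 (interval -0.03 to 0.82) and for Pln 0.31 (interval -0.05 to 0.67). The genotype difference averaged over conditions passed for 0 members (6 with an unadjusted p under 0.05, as had 1677 of the 19938 genes), beside 0.1% of all genes (0.0401% higher, 0.0602% lower), and was above 0 for 15 of the 30.

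**Figure D5:**
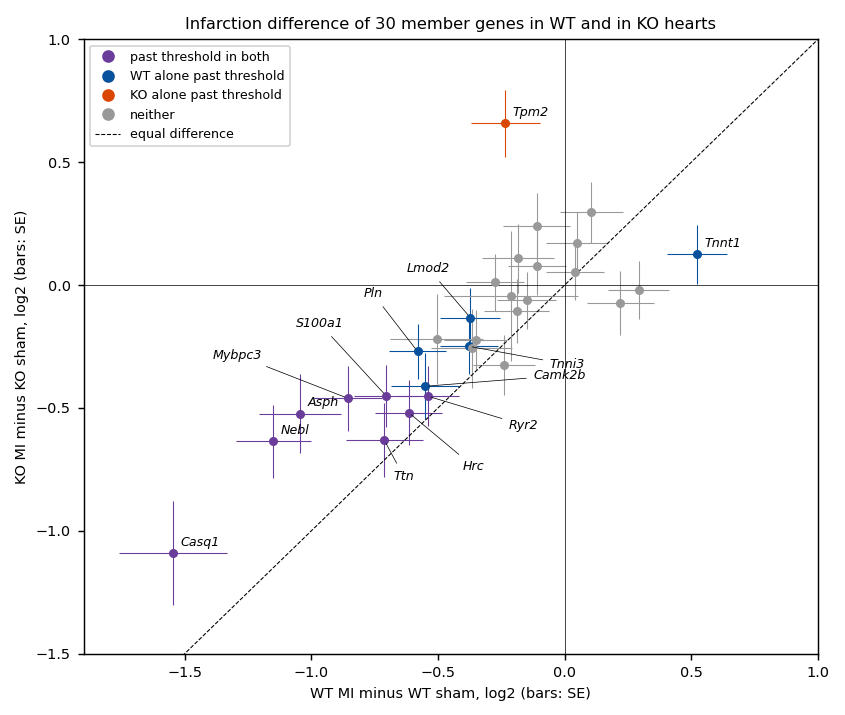
Each point is 1 of the 30 genes, at its log2 difference between MI and sham in WT (horizontal) and in KO (vertical), with SE bars and a dashed line of equal difference. Casq1 lies lowest in both (-1.55 and -1.09), and Tpm2 is the point past the threshold in KO alone.

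Other genes of the sarcomere and of calcium handling were taken from a list of 67, of which 60 were measured as single genes. In WT 15 rose and 18 fell, where 12.3% of all genes were higher and 15.8% lower. In KO 13 rose and 11 fell, where 10.5% of all genes were higher and 10.3% lower. The tropomyosins Tpm3 and Tpm4, which cells other than muscle also make, rose. Tpm3 read 9.50 and 9.53 in WT sham and 11.07 and 10.96 in WT MI (2.83-fold, limma adjusted p = 2.18e-05), and Tpm4 rose 2.19-fold. In KO these rises were 2.59-fold and 2.22-fold. Xirp1 and Xirp2, actin-binding repeat proteins of muscle cell junctions, rose 2.88-fold and 2.31-fold in WT and 2.53-fold and 2.46-fold in KO. Lmod3, the leiomodin best known from skeletal muscle, read 9.45 and 9.49 in WT sham, 7.73 and 7.24 in WT MI, 9.38 and 9.61 in KO sham and 8.58 and 8.86 in KO MI. It fell 3.97-fold in WT (limma adjusted p = 5.02e-05) and 1.71-fold in KO (limma adjusted p = 0.0136). The call in KO was lost without KO sham replicate 2 and without KO MI replicate 1 (adjusted p over alternatives 0.0058 to 0.111). Its level in KO MI was above WT MI by 1.24 (limma adjusted p = 0.0575, range 0.0158 to 0.339). Ank2, the ankyrin that anchors the exchanger, fell 2.81-fold in WT and 2.22-fold in KO. Cacna1c, the L-type channel through which trigger calcium enters, fell 2.63-fold and 2.30-fold. Camk2a fell 2.79-fold and 2.05-fold, and Cacna1g, a T-type channel, 3.51-fold and 3.14-fold. In the comparisons of KO with WT 0 of the 60 passed, sham or MI, and 0 in the difference of responses.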

How the data were processed

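RNA of 8 mouse heart samples was hybridised to 1 array each. The authors deposited log2 values, for which the submitters' processing notes name Affymetrix Expression Console and RMA. Neither a version nor a genome build is stated there. Of 35556 probes, 21789 had 1 gene in the platform annotation, 1621 several and 12146 were not listed. Of the 21789, 21698 were matched by Entrez ID to RefSeq and 91 were not. One probe per gene, the one with the highest mean, was tested, which left 19938 genes and no filter on low values. Among the members 5 had more than 1 probe. The number of arrays limits the precision.

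All 8 arrays entered 1 limma 3.58.1 fit in R 4.3.3 with 4 group means (4 residual and 5.57 prior degrees of freedom), two-sided, with Benjamini-Hochberg adjustment over 19938 genes at 0.05. Intervals are 95% and unadjusted. With 2 arrays against 2, an exact permutation test cannot go under 0.333. The code was tested on simulated data. Figures used matplotlib 3.10.9. All members were named, Fbxo32 was named as a check of the labels, and of the other pathway genes up to 4 in each direction per comparison with the smallest p. The gene lists, like the members, were chosen with earlier results of these data known. Alternatives are given in the closing section.

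Marker lists not described beside the results also differed between groups. Of 8 fibroblast markers 5 were lower after infarction in WT and 1 in KO, and of 7 endothelial markers 2 and 3, with 1 higher in WT. The liver mean was 6.48 and 7.31 in WT sham, 6.97 and 4.67 in KO sham, 4.54 and 4.81 in WT MI and 4.35 and 4.62 in KO MI. Alb, one of these markers, read 9.11, 10.46, 10.00 and 5.56 on these sham arrays and between 3.64 and 3.90 after MI. The adipose mean was 5.16 and 5.66 in WT sham, 5.46 and 4.35 in KO sham, 4.41 and 4.68 in WT MI and 4.34 and 4.42 in KO MI. Of 5 adipose and 5 liver markers, 1 and 3 fell in WT MI and 0 and 1 in KO MI. The part of such tissue in the differences between MI and sham was not tested. Of 2 erythrocyte markers measured 0 changed.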

Additional observations from a re-analysis of the deposited data

Results flagged for a closer look

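Tpm2 and Slc8a1 were singled out because every MI array differed from its sham group in one direction in WT and in the opposite direction in KO. The share of all genes with this pattern was not counted, so whether it is unusual was not tested. Within a genotype, 2 arrays against 2 cannot give an exact permutation p under 0.333. The Slc8a1 differences were small, -0.11 in WT and 0.08 in KO. For Tpm2 the response in KO minus that in WT was 0.89 on the log2 scale (limma adjusted p = 0.372, adjusted p over alternatives 0.127 to 0.973), with KO MI above KO sham on 2 of 2 arrays and WT MI below WT sham on 2 of 2. For Slc8a1 it was 0.19 (limma adjusted p = 0.773, over alternatives 0.487 to 0.973). The second Slc8a1 probe gave 0.45 (limma adjusted p = 0.716 with all probes tested). The test of the difference itself passed for neither gene.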

How the results depend on the processing

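Over the genes named and 6 comparisons, 4111 recomputed values stayed on their side of the threshold, 80 lost the call, 37 gained it, and 0 called values changed sign. Values that did not pass could change sign, as Tnnt2 did in WT MI (-0.05 to 0.14) and Casq2 in KO MI (-0.53 to 0.09). Members called in KO MI against KO sham numbered 5 with all probes tested, 4 with only the 2 groups compared and 3 with median centring. All genes called in KO sham against WT sham numbered 12 with a limma-trend prior, 1 with all probes, 3 with only the 2 groups and 13 with median centring. In KO MI against WT MI they numbered 63 with the trend prior (1 member, Pln), 26 with array weights, 23 without the lowest 33.3% of genes, 0 with all probes, 2 with only the 2 groups and 3 without KO sham replicate 1 and WT MI replicate 2 together. For the difference of responses they were 4 (trend) and 1 (cyclic loess), and for the averaged genotype difference 39 (trend), 1 (all probes) and 8 (both arrays left out). The cause was not tested. With the replicate number as a block, 5248 genes passed in WT MI, 3811 in KO MI, 5 in KO MI against WT MI and 7 in the averaged difference. Same-numbered arrays correlated between -0.123 and 0.156 in their deviations, so the numbers were not taken to pair samples. Leaving out 1 array at a time gave 3457 to 6483 genes and 7 to 15 members in WT MI, 2246 to 4099 genes and 2 to 10 members in KO MI, 3 to 34 genes in KO sham against WT sham, 2 to 11 in KO MI against WT MI, 0 to 3 for the difference and 3 to 10 for the average, with 0 members in these 4. Where this left a group with 1 array, that array was assumed to vary like the others. The 2-group fit was not run for comparisons over all 4 groups. Having 2 arrays a group limits every count.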
